A study of Rattus norvegicus with 4 samples.

Results

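The interferon response and antigen presentation genes of rat liver were described as a set of 43 genes, chosen by name for their function with earlier results of these data known, of which 42 were measured among the 14506 gene symbols on the array. The RNA came from 4-month-old male rats of the WNIN/Ob strain, which holds lean and obese animals, fed stock diet and given no treatment. One pool joined the liver RNA of 4 lean animals and the other that of 4 obese animals, and each pool was hybridised to 2 Affymetrix arrays, called original and technical replicate in the labels. Each phenotype is therefore 1 pool, all errors below cover measurement only, no test across animals exists, and a difference is a difference between these pools. The 43rd gene, Ddx58, had no probe set under that symbol, and its values are given below under the symbol that the platform annotation uses.

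Interferons are secreted when a cell senses viral nucleic acid or when lymphocytes are activated, and they act through receptors and Janus kinases on STAT and IRF transcription factors. The induced genes encode antiviral enzymes, GTPases that attack intracellular pathogens, and the machinery that cuts proteins into peptides and loads them on class I molecules, which nearly all cells display. Class II molecules present peptides from engulfed material instead. In liver they are found mainly on Kupffer cells, dendritic cells and B cells, and hepatocytes carry little of them.

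Promoter sequences of 8 of these genes are shown as a description, and their part in the differences was not tested. They are the windows from 250 bases before to 50 bases after the gene start in RefSeq's GRCr8 assembly, printed 5′ to 3′ on the strand of the gene. Of the 42 measured genes 34 had such a window. The core of the interferon-stimulated response element, GAAANNGAA on either strand, stood in 17 of the 34 windows and in 9.71% of all 33469 promoters in the table. It was found in 7 of 9 windows of class I genes, 3 of 4 of the GTPases and 5 of 7 of the antiviral effectors. The transcription factors had it in 1 of 7 windows, the RNA sensors in 1 of 1 and the class II genes in 0 of 6. The gamma-activated site, TTCNNNGAA, which reads the same on both strands, stood in 8 of the 34 windows against 8.87% of all promoters. The CCAAT box, searched on both strands and free to overlap the others, stood in 17 of the 34 windows and 37.5% of all promoters. It stood in 6 of 6 class II windows and 3 of 9 class I windows. A match is a run of letters and was not tested for binding.

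The first set holds the 3 class I genes with the largest differences, with the response element core in capitals. Psmb8 lies at chr20:4656982-4657281 on the minus strand, and its match spans the gene start. Tap1 lies at chr20:4668494-4668793 on the minus strand, with its match beginning 120 bases before the start. Psmb9 lies at chr20:4668750-4669049 on the plus strand and shares 44 bases with the window of Tap1, since both genes start 457 bases apart and run away from each other. The Psmb9 window itself holds no match to GAAANNGAA, which says only that these letters are not in it.
Psmb8: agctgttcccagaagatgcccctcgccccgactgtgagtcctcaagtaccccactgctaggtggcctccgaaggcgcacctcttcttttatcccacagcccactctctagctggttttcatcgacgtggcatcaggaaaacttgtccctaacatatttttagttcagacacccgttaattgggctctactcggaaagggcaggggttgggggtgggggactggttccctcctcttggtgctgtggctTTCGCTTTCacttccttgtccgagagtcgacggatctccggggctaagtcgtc
Tap1: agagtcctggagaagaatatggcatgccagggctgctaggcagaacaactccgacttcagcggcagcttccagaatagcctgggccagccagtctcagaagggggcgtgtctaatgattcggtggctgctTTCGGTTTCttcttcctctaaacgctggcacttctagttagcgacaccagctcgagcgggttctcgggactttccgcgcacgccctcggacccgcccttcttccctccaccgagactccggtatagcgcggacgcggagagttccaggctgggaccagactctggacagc
Psmb9: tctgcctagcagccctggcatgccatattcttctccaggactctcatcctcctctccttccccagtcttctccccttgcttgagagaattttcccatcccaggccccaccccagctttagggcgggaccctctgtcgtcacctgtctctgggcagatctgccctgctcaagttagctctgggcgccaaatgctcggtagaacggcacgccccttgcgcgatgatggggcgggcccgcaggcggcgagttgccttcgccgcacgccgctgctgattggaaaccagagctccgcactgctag

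The second set holds an interferon-induced GTPase that was higher in the obese pool and the antiviral effector with the largest deficit there, again with the response element core in capitals. Igtp lies at chr10:42874797-42875096 on the plus strand, and its match is preceded by a gamma-activated site that begins 114 bases before the start. Rsad2 lies at chr6:48788071-48788370 on the minus strand, with its match beginning 146 bases before the start.
Igtp: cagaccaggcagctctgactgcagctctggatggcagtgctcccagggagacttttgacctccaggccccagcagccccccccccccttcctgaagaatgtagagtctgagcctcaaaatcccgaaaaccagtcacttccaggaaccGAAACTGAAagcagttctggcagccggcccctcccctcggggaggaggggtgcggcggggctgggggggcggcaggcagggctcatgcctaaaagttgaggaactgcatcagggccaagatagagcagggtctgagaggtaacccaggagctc
Rsad2: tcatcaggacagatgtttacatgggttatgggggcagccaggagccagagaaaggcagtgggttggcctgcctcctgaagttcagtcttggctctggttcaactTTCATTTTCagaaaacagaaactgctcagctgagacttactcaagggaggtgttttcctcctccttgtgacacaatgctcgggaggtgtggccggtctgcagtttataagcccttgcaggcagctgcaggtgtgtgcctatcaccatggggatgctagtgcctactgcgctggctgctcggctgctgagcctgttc

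The third set holds 3 class II genes that were lower in the obese pool, with the CCAAT box in capitals on either strand. Cd74 lies at chr18:56526956-56527255 on the plus strand and RT1-Da at chr20:4515165-4515464 on the plus strand. RT1-Bb lies at chr20:4604069-4604368 on the minus strand and holds 2 matches, the nearer of which begins 61 bases before the start.
Cd74: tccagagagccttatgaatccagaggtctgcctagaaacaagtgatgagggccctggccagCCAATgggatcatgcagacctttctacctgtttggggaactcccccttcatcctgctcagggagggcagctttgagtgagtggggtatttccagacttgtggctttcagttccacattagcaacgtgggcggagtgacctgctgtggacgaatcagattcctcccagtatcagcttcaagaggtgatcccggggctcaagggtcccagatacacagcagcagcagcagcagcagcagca
RT1-Bb: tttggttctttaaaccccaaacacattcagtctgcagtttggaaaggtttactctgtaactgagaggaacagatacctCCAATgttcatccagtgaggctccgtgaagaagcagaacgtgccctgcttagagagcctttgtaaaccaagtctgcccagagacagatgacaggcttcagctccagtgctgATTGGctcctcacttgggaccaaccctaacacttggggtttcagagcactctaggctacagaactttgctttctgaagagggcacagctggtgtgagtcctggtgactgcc
RT1-Da: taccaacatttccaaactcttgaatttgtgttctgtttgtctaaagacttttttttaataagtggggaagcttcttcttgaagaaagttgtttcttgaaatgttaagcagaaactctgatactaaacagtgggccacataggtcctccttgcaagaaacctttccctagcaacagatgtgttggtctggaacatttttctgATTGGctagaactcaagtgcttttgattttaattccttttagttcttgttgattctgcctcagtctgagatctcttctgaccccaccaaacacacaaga

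In the obese pool 3 of 9 class I presentation genes were higher by a factor of 1.5, against 2.19% of all genes by the rule given below. Of 8 class II presentation genes 2 were lower, against 2.43% of all genes. Psmb9 and Psmb8, catalytic subunits of the immunoproteasome, were 1.65-fold higher (1.55 to 1.77 and 1.56 to 1.74, taking each lean array against each obese one), and the peptide transporter Tap1 was 1.57-fold higher (1.46 to 1.68). RT1-Bb, the beta chain of a class II molecule, was 1.56-fold lower (1.46 to 1.68) and Cd74, the invariant chain that guides class II molecules, 1.52-fold lower (1.43 to 1.62). The antiviral effectors did not share a direction, with Mx2 1.58-fold higher (1.46 to 1.70) and Rsad2 1.61-fold lower (1.34 to 1.92). None of the 42 genes differed by a factor of 2. Skeletal muscle markers, given below, were far higher in the lean pool, and the part of muscle RNA in these differences was not tested.

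A 1.5-fold rule counted a gene if the mean of one pool exceeded that of the other by this factor, if the closest lean and obese arrays were separated by 0.25 or more in log2 intensity, and if the brighter pool reached 5.48, the median level of all genes. By this rule 4 of the 42 genes were higher, which is 9.52% against 2.19% of all genes, and 3 were lower, which is 7.14% against 2.43%. With cyclic loess between the arrays the split was 2 higher and 4 lower, against 227 higher and 400 lower of all genes. With the arrays centred on hepatocyte genes it was again 2 higher and 4 lower, against 212 and 434 of all genes. Without the obese technical replicate array 5 were higher and 1 was lower, which was RT1-Bb, against 553 higher and 336 lower of all genes. Both obese arrays lay above both lean arrays for 19 of the 42 genes (45.2%, against 27.5% of all genes) and below them for 8 (19.0%, against 18.5%). The arrays of the pools overlapped for the remaining 15 genes. The median difference over the 42 genes was 0.11 on the log2 scale and that over all genes 0.03. The former was 0.06 when either original array was left out and 0.21 when the obese technical replicate was, so its size rests on single arrays.

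**Figure D1:**
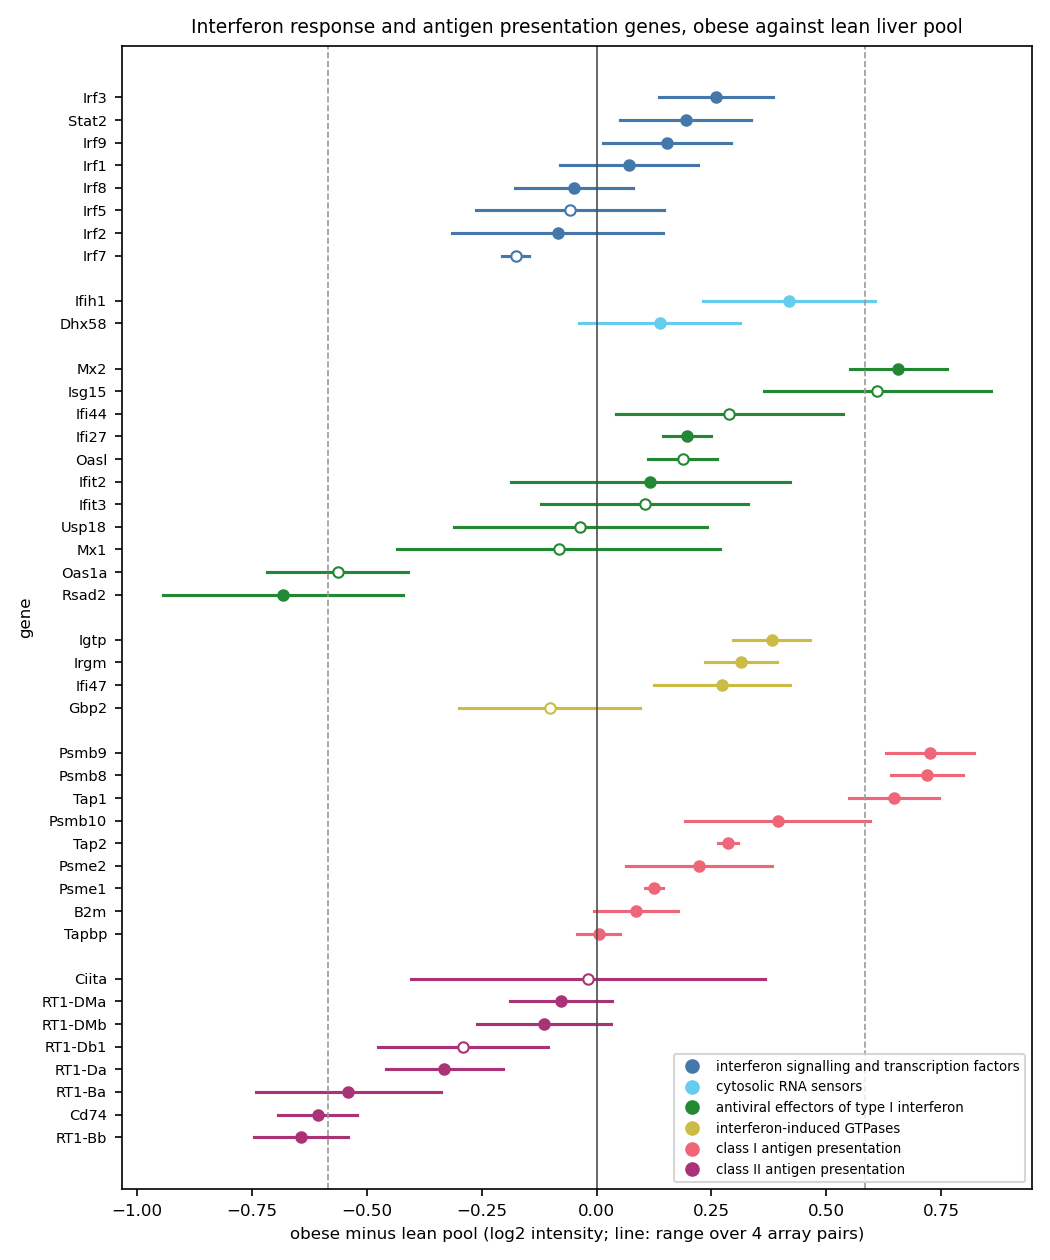
Difference of each of the 42 genes between the obese and the lean pool, as log2 intensity on the horizontal axis, by role; lines span the 4 pairs of arrays, dashed lines mark a factor of 1.5, and open points are genes below the median level of all genes in both pools. Class I genes lie at or above 0, from 0.01 to 0.73, and class II genes below 0, from -0.02 to -0.64.

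The obese original array had the highest upper quartile of log2 intensity, 6.62 against at most 6.52 on the other arrays, and the lowest median intensity, 25.7 against 26.8 to 27.7. The obese original array read higher than the obese technical replicate for 32 of the 42 genes, against 8141 of all 14506 genes, while the lean original array read higher than its technical replicate for 18 of the 42. The median difference between arrays of the same pool over the 42 genes was 0.09 for lean and 0.16 for obese arrays, on the log2 scale. The level filter was reached by 30 of the 42 genes, and the remaining 12 are not shown to lie above background. The 10 hepatocyte markers checked on the arrays had mean levels from 10.82 to 13.70 in log2 intensity. The 8 skeletal muscle markers, which liver should lack, summed to 27622 and 28723 intensity units on the lean arrays and to 351 and 354 on the obese arrays. The part of this muscle RNA in the differences between the pools was not tested.

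Among the transcription factors of the interferon pathway, the members of the complex that carries type I signals to the nucleus were slightly higher in the obese pool. Stat2, a subunit of that complex, was at 8.66 and 8.72 on the lean arrays and at 8.99 and 8.77 on the obese arrays (log2 intensity, original array first, as in all later pairs). Both obese arrays were above both lean arrays, at a 1.14-fold excess (1.04 to 1.26). Irf9, its DNA-binding subunit, was at 7.06 and 7.13 in the lean and 7.35 and 7.14 in the obese pool, where the lower obese array was only 0.01 above the higher lean one. Irf3, which switches on interferon genes after viral sensing, had the largest difference of the 8 factors, at 7.92 and 7.94 in the lean and 8.31 and 8.08 in the obese pool. That is a 1.20-fold excess (1.10 to 1.31), and both obese arrays were above both lean arrays. Without the obese original array the differences of Stat2 and Irf3 were 0.08 and 0.15, and with all arrays 0.19 and 0.26, so their size rests on that array.

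Of the other 5 factors 4 had differences below 0, and the arrays overlapped for all but Irf7. Irf7, the factor that amplifies type I interferon, was at 5.12 and 5.15 in the lean and 4.98 and 4.95 in the obese pool, with no overlap but below the median level of all genes. Irf1, which responds to interferon gamma, had a difference of 0.07 on the log2 scale with overlapping arrays. So did Irf8 (-0.05) and Irf5 (-0.06), factors of myeloid cells, and Irf2 (-0.08), which competes with Irf1 for its sites. The median difference of the 8 factors was 0.01, and it ranged from -0.09 when the obese original array was left out to 0.15 when the obese technical replicate was. None of the 8 passed the 1.5-fold rule.

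Of the 2 measured cytosolic sensors of viral RNA 0 passed the 1.5-fold rule, and 1 was higher in the obese pool without overlap (27.5% of all genes). Ifih1, which binds long double-stranded RNA, was at 7.57 and 7.65 on the lean arrays and at 8.18 and 7.88 on the obese arrays. Both obese arrays were above both lean arrays, at a 1.34-fold excess (1.17 to 1.52), and the log2 difference of 0.42 was 0.27 without the obese original array. Dhx58, which modulates the other sensors, had a difference of 0.14 with overlapping arrays. The third sensor, listed as Ddx58, carries the symbol Rig1 in the platform annotation, whose entry in the RefSeq gene table names Ddx58 as a synonym. It was matched after its absence was seen and stands outside all counts of the 42 genes. Rig1 was at 7.76 and 7.76 in the lean and 8.45 and 8.34 in the obese pool, a 1.56-fold excess (0.59 to 0.70 on the log2 scale over the array pairs) that passed the 1.5-fold rule.

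The 11 antiviral effectors moved in both directions. Mx2, a GTPase of the myxovirus resistance family, was at 6.75 and 6.78 on the lean and at 7.51 and 7.33 on the obese arrays (means 6.76 ± 0.02 and 7.42 ± 0.13). The arrays of each pool lay close together and far from the other pool, although the log2 difference of 0.66 was 0.57 without the obese original array, just under the 1.5-fold rule. Rsad2, the enzyme viperin that makes a chain-terminating nucleotide, was at 6.43 and 6.48 in the lean and 6.005 and 5.54 in the obese pool (means 6.45 ± 0.04 and 5.77 ± 0.33). Both obese arrays were lower, but they lay 0.46 apart from each other, and the log2 difference of -0.68 became -0.45 and missed the rule once the obese technical replicate array was left out. Ifi27, the brightest of the effectors and a protein of the mitochondrial and nuclear membranes, was at 10.76 and 10.71 in the lean and 10.96 and 10.90 in the obese pool. That is a 1.15-fold excess (1.11 to 1.19) with no overlap.

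Of the dimmer effectors, Isg15 and Oas1a differed most and in opposite directions. Isg15, a ubiquitin-like protein joined to other proteins, was at 4.65 and 4.98 in the lean and 5.51 and 5.34 in the obese pool. Oas1a, an enzyme that makes the activator of RNase L, was at 5.06 and 4.84 in the lean and 4.34 and 4.43 in the obese pool. In both genes the arrays did not overlap, but neither pool reached the median level of all genes, so their folds have no firm size. Oasl and Ifi44 were higher without overlap, by 0.19 and 0.29, and also below that level. The arrays overlapped for Ifit2 (0.12) and Ifit3 (0.10), which bind viral RNA, for Usp18 (-0.04), which removes Isg15 from proteins, and for Mx1 (-0.08). The Oas and Mx genes have close relatives whose transcripts could reach the same probe set, which these data do not resolve. The median difference of the 11 was 0.12, and it ranged from 0.01 when the obese original array was left out to 0.23 when the obese technical replicate was.

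Of the 4 interferon-induced GTPases 3 were higher in the obese pool by nearly the same amount. Igtp, which acts on vacuoles that hold pathogens, was at 7.16 and 7.19 in the lean and 7.48 and 7.62 in the obese pool, a 1.30-fold excess (1.23 to 1.38). Irgm, a regulator of the same GTPases, was at 7.35 and 7.38 in the lean and 7.74 and 7.61 in the obese pool, a 1.24-fold excess (1.18 to 1.31). Ifi47, a further member of the family, was 1.21-fold higher (1.09 to 1.34). In these 3 genes both obese arrays were above both lean arrays, as in 27.5% of all genes. Gbp2, of the separate guanylate-binding family, had a difference of -0.10 with overlapping arrays below the median level. None of the 4 reached a factor of 1.5, and their median difference was 0.29.

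**Figure D2:**
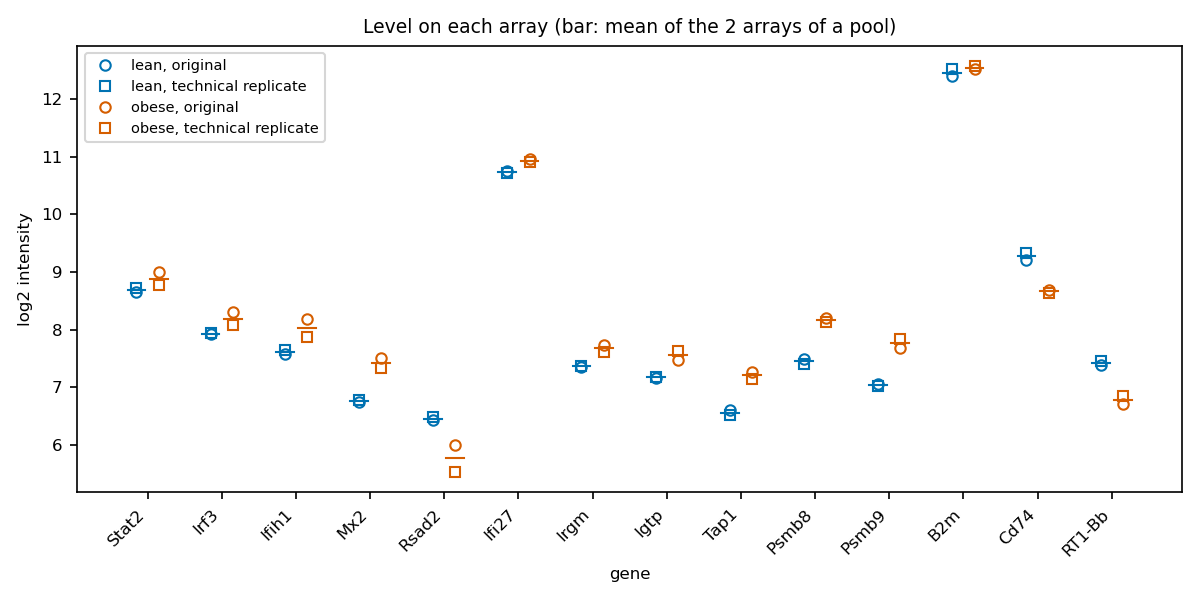
Log2 intensity on each of the 4 arrays for 14 genes, those past the 1.5-fold rule and, in each role group, the brightest and the largest differences without overlap at the median level; circles are original arrays, squares technical replicates, and bars the mean of the 2 arrays of a pool. Rsad2, Cd74 and RT1-Bb are lower on both obese arrays, B2m overlaps, and the other 10 genes are higher on both obese arrays.

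All 9 class I antigen presentation genes had differences above 0, as had 8259 of all 14506 genes. Of the 9, 7 had both obese arrays above both lean arrays (27.5% of all genes) and 3 were 1.5-fold higher (2.19% of all genes), and their median difference was 0.29. That median was 0.26 to 0.30 when any array was left out, 0.23 with cyclic loess, and 0.18 when the arrays were centred on hepatocyte genes. All 9 reached the median level of all genes in at least 1 pool.

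The largest differences were those of Psmb9 and Psmb8, subunits of the immunoproteasome. Psmb8, its chymotrypsin-like subunit, was at 7.50 and 7.40 on the lean arrays and at 8.20 and 8.14 on the obese arrays, which gives means of 7.45 ± 0.07 and 8.17 ± 0.04 (SD, n = 2 arrays). Psmb9, which takes the place of Psmb6 there, was at 7.06 and 7.03 in the lean and 7.69 and 7.85 in the obese pool (means 7.04 ± 0.02 and 7.77 ± 0.11). The gap between the nearest arrays of the pools was 0.64 and 0.63 on the log2 scale, several times the spread within a pool. Psmb10, the last of the 3 induced catalytic subunits, was at 6.32 and 6.10 in the lean and 6.51 and 6.70 in the obese pool, a 1.31-fold excess (1.14 to 1.51) with no overlap. Psme1 and Psme2, which form the activator that opens the proteasome, were 1.09-fold (1.08 to 1.11) and 1.17-fold (1.04 to 1.30) higher without overlap. Each of these had a second, dimmer probe set, on which the differences were 0.09 and 0.07 and the arrays overlapped.

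Each induced subunit takes the place of a constitutive one, and the constitutive subunits differed less. Psmb5, which Psmb8 replaces, differed by 1.10-fold (1.08 to 1.12, higher in the obese pool), and the difference of Psmb8 exceeded that of Psmb5 by 0.58 (0.50 to 0.67 over the pairs of arrays, log2 scale). Psmb9 exceeded Psmb6 by 0.51 (0.33 to 0.69) and Psmb10 exceeded Psmb7 by 0.31 (0.16 to 0.45). The excess of the induced subunit was above 0 in every pair of arrays for all 3. Over the 10 measured constitutive proteasome genes 0 passed the 1.5-fold rule, the median difference was 0.13, and 9 had both obese arrays above both lean arrays (27.5% of all genes). This shows an unequal difference between the kinds of subunit and not that either kind was unchanged.

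**Figure D3:**
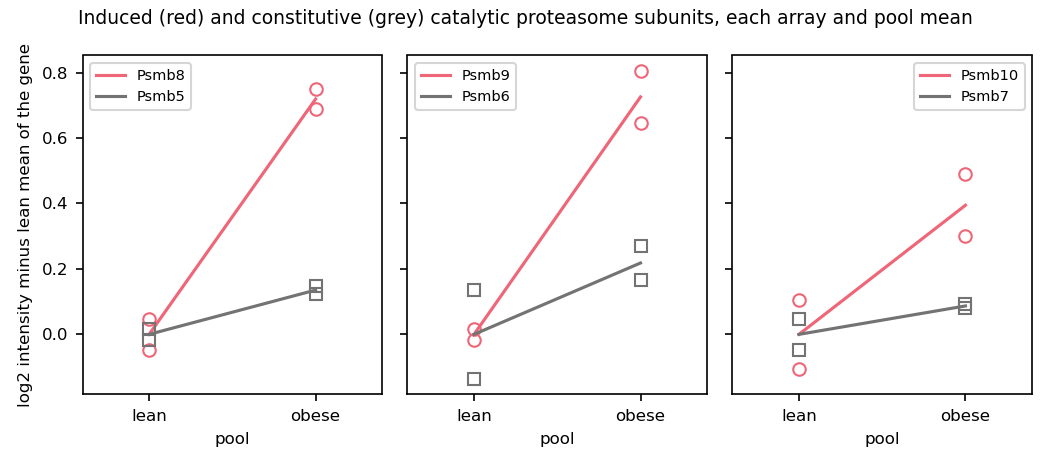
Log2 intensity of 3 induced (red circles) and 3 constitutive (grey squares) catalytic proteasome subunits on each array, minus the lean mean of each gene; lines join the pool means. In each panel the red line ends higher, by 0.58, 0.51 and 0.31 from left to right.

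Tap1, a subunit of the transporter that carries peptides into the endoplasmic reticulum, was at 6.60 and 6.52 in the lean and 7.27 and 7.15 in the obese pool (means 6.56 ± 0.06 and 7.21 ± 0.08), and the arrays were far from overlapping. Tap2, the other half-transporter, was at 5.94 and 5.94 in the lean and 6.25 and 6.21 in the obese pool, a smaller 1.22-fold excess (1.20 to 1.24) with no overlap. Tapbp, or tapasin, which bridges the transporter to the class I molecule, had a difference of 0.01 with overlapping arrays. B2m, the shared light chain of class I molecules and the brightest of the 42 genes, was at 12.40 and 12.52 in the lean and 12.51 and 12.58 in the obese pool. Its arrays overlapped, and the log2 difference of 0.09 turned to -0.01 when the arrays were centred on hepatocyte genes.

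All 8 class II antigen presentation genes had differences below 0, as had 6245 of all 14506 genes. Of the 8, 5 had both obese arrays below both lean arrays (18.5% of all genes), 2 were 1.5-fold lower (2.43% of all genes), and the median difference was -0.31, or -0.44 over the 6 genes that reached the median level. The median was -0.22 to -0.37 when any array was left out, and -0.41 when the arrays were centred on hepatocyte genes. Fewer class II-bearing cells and less class II RNA in each cell cannot be told apart in bulk tissue. The RT1 genes are members of a polymorphic family with close relatives, so probes can share targets and a probe set can follow an allele as well as a level.

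Cd74, the brightest of the 8, was at 9.21 and 9.34 on the lean arrays and at 8.69 and 8.64 on the obese arrays (means 9.27 ± 0.09 and 8.67 ± 0.03). RT1-Bb was at 7.39 and 7.46 in the lean and 6.72 and 6.85 in the obese pool (means 7.43 ± 0.05 and 6.78 ± 0.09). In both genes the pools were at least 0.52 apart, well beyond the spread within a pool, but Cd74 missed the factor of 1.5 without the lean technical replicate array or the obese technical replicate array (-0.54 and -0.58), and RT1-Bb missed it without the obese original array (-0.58). RT1-Ba, the alpha chain that pairs with RT1-Bb, was at 6.24 and 6.60 in the lean and 5.90 and 5.86 in the obese pool, a 1.45-fold deficit (1.26 to 1.67). RT1-Da and RT1-Db1, the chains of the other class II molecule, were 1.26-fold (1.15 to 1.37) and 1.22-fold (1.08 to 1.39) lower without overlap, and RT1-Db1 stayed just below the median level.

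The genes that load class II molecules and switch them on did not separate the pools. RT1-DMa and RT1-DMb, which form the peptide exchange factor, had differences of -0.08 and -0.11 with overlapping arrays. Ciita, the coactivator that drives class II transcription, was at 4.49 and 4.77 in the lean and 4.37 and 4.86 in the obese pool. Its arrays spanned each other and lay below the median level, so a difference in the driver was not detectable here.

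Genes with differences in both directions lie in 1 run of genes on chromosome 20. In the RefSeq order of protein-coding genes on chromosome 20, the run from RT1-Da to RT1-Ha holds 16 genes, of which 14 had a value. RT1-Da, RT1-Db1, RT1-Ba and RT1-Bb come first, with differences of -0.33, -0.29, -0.54 and -0.64. After RT1-DOb (0.04), a chain of the inhibitor of peptide exchange, come Tap2, Psmb8, Tap1 and Psmb9, at 0.29, 0.72, 0.65 and 0.73. RT1-DMb and RT1-DMa follow, and the arrays of both and of RT1-DOb overlapped between the pools. The far end holds Brd2, a bromodomain protein, RT1-DOa and RT1-Ha, at 0.07, 0.10 and 0.12. The measured class II genes from RT1-Da to RT1-DMa thus lay at or below 0.04.

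**Figure D4:**
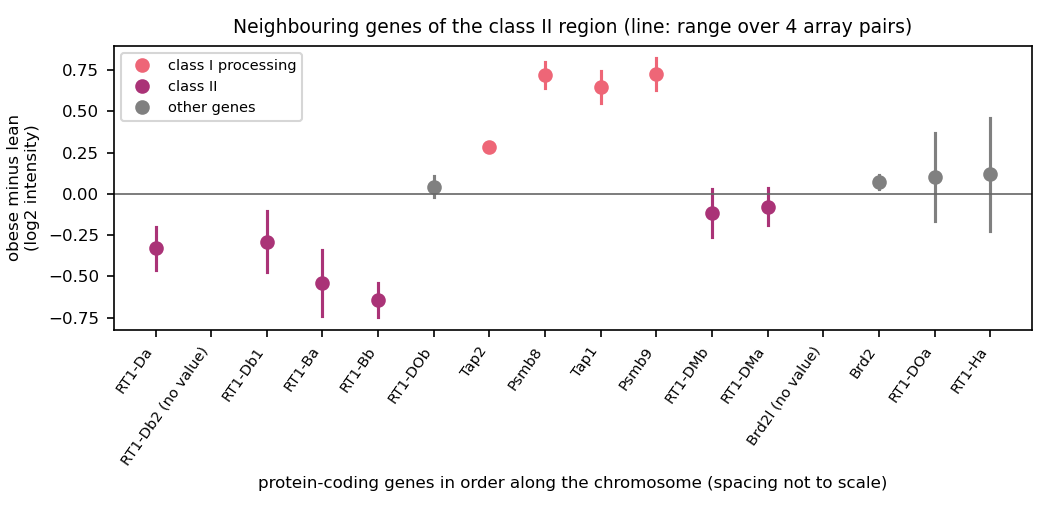
Difference between the obese and lean pools (log2 intensity) for protein-coding genes of the class II region in chromosome order, with lines over the 4 pairs of arrays and 2 genes without a value. The 4 class I processing genes stand above 0, at 0.29 to 0.73, and the class II genes next to them on either side, up to RT1-DMa, at or below 0.04.

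Further genes of the pathway, from lists that hold none of the 43, were read in the same way. Of 12 receptors, kinases and feedback genes 0 passed the 1.5-fold rule, and the median difference was 0.07. Socs3, a feedback inhibitor that interleukin 6 also induces, was the largest, at 5.95 and 5.91 in the lean and 6.45 and 6.42 in the obese pool, a 1.41-fold excess (1.38 to 1.45). Ptpn2, a phosphatase of Janus kinases, was 1.26-fold higher (1.09 to 1.44). The 8 measured genes for interferons and the cytokines that induce them all lay below the median level, with a median difference of 0.02, so no difference in the ligands was detectable.

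Sensing genes outside the cytosolic RNA sensors held 2 of 12 that were higher by the 1.5-fold rule, against 2.19% of all genes. Ikbke, a kinase that phosphorylates Irf3 and is itself induced by interferon, was at 5.71 and 5.38 on the lean and 6.59 and 6.43 on the obese arrays, a 1.96-fold excess (1.66 to 2.32). Tlr3, the receptor for double-stranded RNA in endosomes, was 1.56-fold higher (1.32 to 1.84). The other 10 did not pass, and the median of the 12 was 0.06.

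Among other interferon-stimulated genes the differences above 0 outnumbered those below. Of 30 measured, 7 were 1.5-fold higher (2.19% of all genes) and 0 lower, and the median difference was 0.23. Both obese arrays lay above both lean arrays for 17 (27.5% of all genes) and below them for 4 (18.5%). Nmi, a partner of STAT proteins, was at 5.40 and 5.42 in the lean and 6.63 and 6.38 in the obese pool, a 2.13-fold excess (1.94 to 2.35). Tor3a, a torsin of the endoplasmic reticulum, was 1.92-fold (1.68 to 2.20), Rtp4 1.81-fold (1.42 to 2.30) and the chemokine Cxcl9, a target of interferon gamma, 1.68-fold (1.38 to 2.04) higher. The lean levels of Nmi, Tor3a and Cxcl9 lay just below the median level of all genes. Bst2, or tetherin, which holds budding virus at the membrane, was named after its value was seen and was at 8.55 and 8.53 in the lean and 9.32 and 9.22 in the obese pool. The 4 genes below without overlap were also named after their values were seen. They were Ifitm3 (-0.26), Ifitm1 (-0.17), Ifitm2 (-0.16) and Cmpk2 (-0.20), the last below the median level in both pools.

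Of 29 further class I genes, which include heavy chains and loading factors, 0 passed the 1.5-fold rule. Both obese arrays lay above both lean arrays for 13 of the 29, against 27.5% of all genes, and below them for 2, against 18.5%. The median difference was 0.06. Cd1d1, which presents lipids, had a difference of 0.58 on the log2 scale (0.41 to 0.75 over the array pairs), just under the rule, and the class I gene RT1-S3 was 1.28-fold higher (1.25 to 1.30). Of 18 further class II and lysosomal genes 0 passed, and the median was 0.03. Ctsl, a lysosomal protease, was 1.33-fold lower (1.21 to 1.47) and Creb1, which binds class II promoters among others, 1.22-fold higher (1.09 to 1.35).

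**Figure D5:**
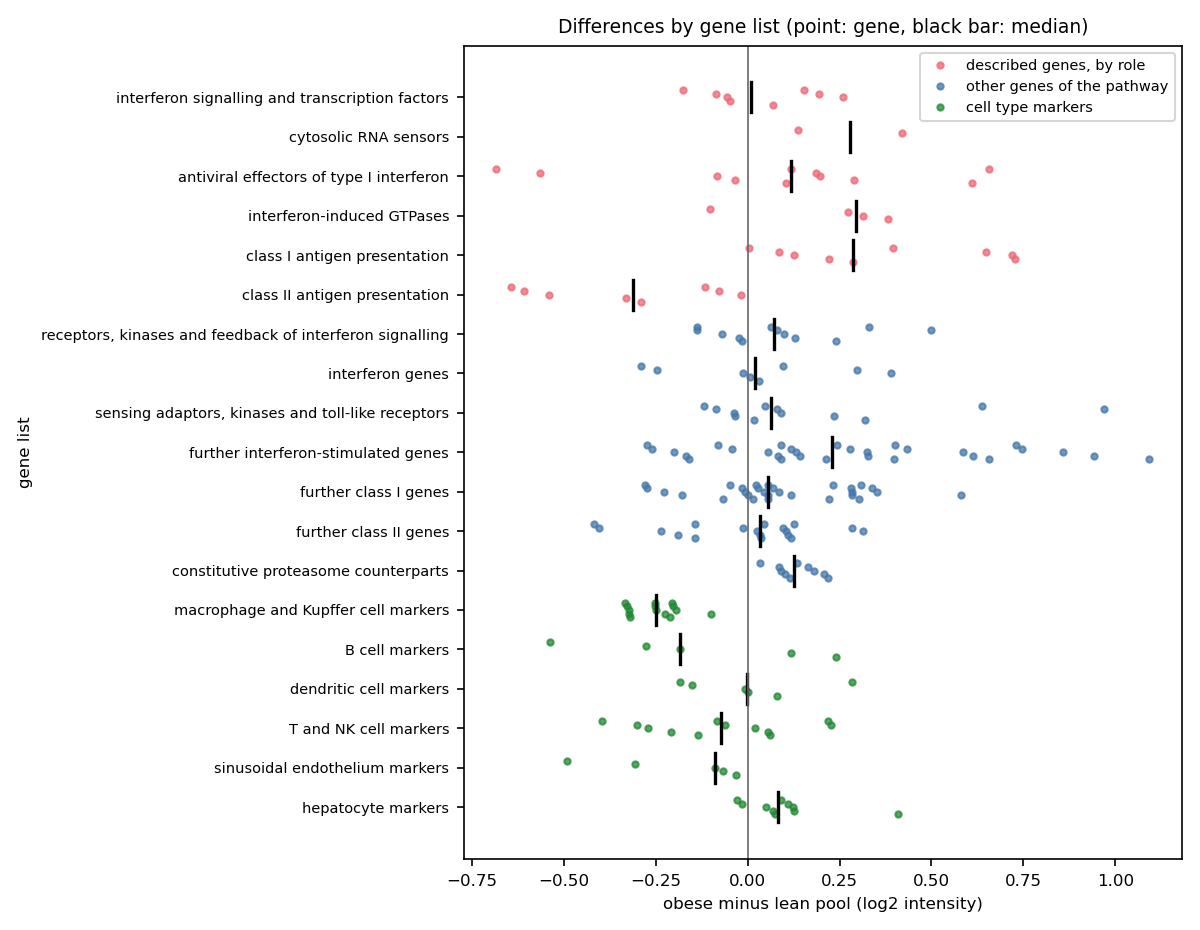
Difference between the obese and lean pools (log2 intensity) for each gene of the 6 role groups, 7 further pathway lists and 6 cell type marker lists, with black bars at the medians. Class II genes (median -0.31) and macrophage markers (-0.25) lie to the left of 0, and class I genes (0.29) and further interferon-stimulated genes (0.23) to the right.

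Of the cells that carry class II molecules, macrophages had markers that were lower in the same pool as the class II genes. Markers of sinusoidal endothelium, given below, were also lower in the obese pool. All 14 measured macrophage and Kupffer cell markers were lower in the obese pool, as were 6245 of all 14506 genes. Of the 14, 10 were lower without overlap (18.5% of all genes) and 0 by the 1.5-fold rule, with a median of -0.25. Their summed intensity was 5801 and 6177 on the lean arrays and 5395 and 4623 on the obese arrays. Cd14, Mpeg1 and C1qc, the brightest of them, had differences of -0.32, -0.20 and -0.21. Of the 5 measured B cell markers 2 were above and 2 below without overlap, against 27.5% and 18.5% of all genes. These 5 had a median of -0.18 and summed to 124 and 123 on the lean and 114 and 125 on the obese arrays. The 6 dendritic cell markers had a median of -0.00 and summed to 228 and 211 on the lean and 192 and 230 on the obese arrays. No marker has a value of 0 on this scale, but 4 of the 5 B cell and 4 of the 6 dendritic cell markers lay below the median level in both pools. The part of these cells in the class II difference was not tested.

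Beside the class I and interferon-stimulated genes, markers of lymphocytes were dim. Of the 12 markers of T and NK cells, which secrete interferon gamma, 1 was above and 4 below without overlap, against 27.5% and 18.5% of all genes. These markers had a median of -0.07, and 11 of the 12 lay below the median level. They summed to 365 and 335 on the lean and 331 and 319 on the obese arrays. All 5 measured sinusoidal endothelium markers were lower in the obese pool, 3 of them without overlap (18.5% of all genes) and 0 by the 1.5-fold rule. Lyve1, Kdr and Pecam1, the brightest of them, had differences of -0.09, -0.49 and -0.31. The 5 had a median of -0.09 and summed to 953 and 947 on the lean and 860 and 758 on the obese arrays. The hepatocyte markers had a median of 0.08 and summed to 72168 and 75165 on the lean and 78749 and 78724 on the obese arrays. Of these 10 markers 6 were above and 1 below without overlap, against 27.5% and 18.5% of all genes. Centring the arrays on the hepatocyte markers lowered every difference by the same amount, to 0.62 for Psmb8 and Psmb9, 0.55 for Tap1 and 0.56 for Mx2, of which the last pair then lay just under the factor of 1.5.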

How the data were processed

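Liver RNA of lean and obese WNIN/Ob rats, 1 pool of 4 animals for each phenotype, was read on 4 arrays. Each deposited value is an intensity, not in log form, from RMA as run by the authors, per the submitters' processing notes; the version, the step out of log form and the genome build are not given in the sources used here. Values ran from 2.31 to 14288. Scanner output and calls of detection were not analysed here.

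The log2 of each value was taken without further normalisation. Of 29214 probe sets 15310 carried 1 gene symbol, 323 several and 13581 were not listed in the platform annotation. The brightest probe set stood for each of 14506 symbols. A level is the mean of 2 arrays (± SD where given) and a difference is obese minus lean. Arrays of 1 pool are technical replicates, so no p-values were computed, and their number limits the precision. The count rule was tested on simulated data. Genes were named when they passed the 1.5-fold rule, were the brightest of their group, or were among its 2 largest differences without overlap at that level. Other members are named with fewer values. Pathway lists gave up to 4 genes, apart from those said to be named after their values were seen. The 3 brightest markers are named for macrophages and sinusoidal endothelium only, and the other marker lists are given by medians or sums. Members and lists were chosen with earlier results of these data known. Promoters came from RefSeq (GRCr8), with the gene order. Alternatives used limma 3.58.1 for quantile normalisation and cyclic loess; Python 3.11.15 did the rest.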

Additional observations from a re-analysis of the deposited data

How the results depend on the processing

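No paired analysis was possible because the values come from no test; the original and the technical replicate arrays were read separately. Of the alternative values of counts and medians, 109 stayed within a factor of 1.5 (counts) or within the spread between array pairs (medians) and 32 did not. Of the 14 genes recomputed singly, the sign turned only for B2m, whose arrays overlap, and of the medians of the 42 genes and the role groups only for the transcription factors. Centring on hepatocyte genes, chosen after seeing the data, gave medians of 0.0099 for the 42 genes and 0.016 for antiviral effectors. It gave 0.19 for GTPases, 0.18 for class I and -0.41 for class II. By the 1.5-fold rule 2 of the 42 genes were then higher, against 212 of all 14506 genes. Without overlap 13 of the 42 were below, against 4619 of all genes. Cyclic loess gave 0.21 for GTPases, 0.23 for class I and 2 higher by the rule, against 227 of all genes. Quantile normalisation gave 0.26 for class I. An offset of 16 gave 0.23 for class I and 1 lower by the rule, against 304 of all genes. The original arrays alone gave 0.20 for the 42 genes, 0.18 for transcription factors, 0.46 for sensors and 0.24 for effectors. On these arrays 1 was lower by the rule, against 342 of all genes, and 14 were below without overlap, against 6524. The technical replicate arrays alone gave 0.10 for sensors, 0.18 for GTPases and -0.22 for class II. There 18 of the 42 genes were below without overlap, against 6425 of all genes. Class II members at the level filter gave -0.44.

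With 1 array left out, medians were 0.063 to 0.21 for the 42 genes, -0.09 to 0.15 for transcription factors, 0.18 to 0.38 for sensors, 0.011 to 0.23 for effectors, 0.21 to 0.34 for GTPases, 0.26 to 0.30 for class I and -0.37 to -0.22 for class II. By the rule 3 to 5 of the 42 genes were higher and 1 to 4 lower. Of all 14506 genes 259 to 553 were higher and 336 to 391 lower. Without overlap 21 to 25 of the 42 were above and 10 to 15 below, a condition that fewer arrays meet more easily. It was met above by 5649 to 6520 and below by 4053 to 4974 of all genes. Over all genes 47.4% of calls by the rule were higher, against 36.2% with cyclic loess and 32.8% with hepatocyte centring, which moved the median of all genes from 0.03 to -0.07. The share of higher calls was 62.2% when the obese technical replicate was left out and 64.3% when both technical replicates were. Quantile normalisation, array median centring and the mean of probe sets left each count within a factor of 1.5. The cause of these shifts was not tested. Signal over background was not known, which limits the 12 dim genes.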
